A study of Rattus norvegicus with 6 samples.

Results

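Tac1 and its receptors Tacr1 and Tacr2 were followed through rat lungs exposed to NiO or C60 particles. The members are 3 genes, each read by 1 array probe, so they make up 3 of the 41012 probes read and 3 of the 28677 probes kept after dim probes were removed. The probes were found by their gene name in the scanner files. Tac1 was chosen by its measured array signal, which in NiO lungs lay far below that in control lungs in these same arrays, so its values are given as a description with no test. The receptors were added as the partners of its peptides.

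The lungs came from male Wistar rats, an outbred laboratory strain, that were 9 weeks old in the study's design. They were kept in whole-body chambers for 6 h a day, 5 days a week, over 4 weeks. Per the labels, the chambers held an aerosol of ultrafine nickel oxide (NiO, the positive control), an aerosol of C60 fullerene (a cage-shaped carbon molecule) or clean air (the control). Lungs were taken 3 days or 1 month (33 days) after exposure ended. The design assigned 5 rats to each group and time, with the right lungs of 4 rats set aside for arrays. All lungs were flushed with saline. Right-lung RNA, marked with the dye Cy3, was read on 1-colour arrays of the whole rat genome. The arrays used were 4 NiO, 2 C60 and 3 control arrays at 3 days, and 4 of each at 1 month. At 3 days 4 C60 arrays were deposited, but the label gives 2, and arrays 1 and 2 rebuilt the authors' column to a median absolute difference of 0.000808 log2 units, against 0.109 with all 4. Each array was read as 1 rat, which the labels do not spell out, and p-values therefore measure only the spread between these arrays.

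Each group lay on a slide of its own, and the effect of the slide and that of the particle cannot be told apart within a time. The 3-day arrays were scanned on 1 day and the 1-month arrays on another, so time and scan day cannot be told apart either. Between 57.4% and 78.3% of spots on the 21 used arrays stood well above background. The lowest shares, 57.4% and 60.7%, were on the 2 used C60 arrays at 3 days, against 78.1% and 76.5% on the 2 left out. The 2 control arrays with the highest such shares at 1 month, arrays 3 and 4, had 78.3% and 77.1%, against 71.3% and 73.6% on control arrays 1 and 2. NiO arrays 2 and 3 at 3 days were the dimmest used arrays, with a 75th percentile of signal of 372 and 336. The 8 lung epithelial markers were all kept, and their summed level ranged between 1072 and 2061 times the array's 75th percentile over all arrays. RNA of whole lung was measured, so fewer cells of a type and less RNA per cell cannot be told apart.

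Tachykinins are short neuropeptides. Tac1 encodes the precursor of substance P and neurokinin A, which in airways are best known from unmyelinated sensory nerve fibres, whose cell bodies lie in ganglia outside the lung. Immune cells have also been described as a source. Substance P acts mainly on the NK1 receptor (Tacr1), which promotes plasma leakage and mucus secretion, and neurokinin A acts mainly on the NK2 receptor (Tacr2), which contracts airway smooth muscle. Both receptors couple to Gq proteins and phospholipase C, and the peptides are broken down by membrane peptidases.

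The first 30 of 60 bases of each member's probe are given here, since every value that follows is the brightness of these probes. They are copied from the scanner files and written 5′ to 3′ as the files give them. Tac1 was read by probe A_43_P15247, which the files place at chr4:32657311-32657369 of rat build rn4, and Tacr1 by probe A_44_P215075 at chr4:116780051-116780110. Tacr2 was read by probe A_43_P13083, for which the files used here hold no position. The strand and the exon are not given in the sources used here. Tac1 and Tacr1 were each printed in 10 spots per array and Tacr2 in 1 spot.
Tac1: aaagcacagtgttgatggagttgtacaagt
Tacr1: ctataagaagttaaaggatccaccaatccg
Tacr2: ttcaaagtttaatgtcacctgagctttccc

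Tac1 was at or near background in NiO lungs at both times and was readily measured in C60 and control lungs. At 3 days its processed signal, the spot intensity after Agilent's background and spatial correction, was 3.30, 4.39, 3.17 and 3.55 on the 4 NiO arrays. It was 396 and 535 on the 2 C60 arrays and 317, 331 and 307 on the 3 control arrays. No NiO array came near any C60 or control array. None of the 40 Tac1 spots on the NiO arrays at 3 days stood well above background, while all 20 spots on C60 arrays and all 30 on control arrays did.

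At 1 month the signal was 6.65, 7.04, 7.40 and 20.7 on NiO arrays, 627, 759, 434 and 467 on C60 arrays, and 342, 369, 337 and 427 on control arrays. NiO lungs again lay below every other lung, and array 4 stood above the other NiO arrays. On that array 7 of 10 spots were well above background, against 1, 0 and 0 of 10 on NiO arrays 1, 2 and 3. The 10 spots of array 4 read between 15.2 and 26.5 and did not overlap the spots of array 1, which read between 2.48 and 14.5. All 40 spots on C60 arrays and all 40 on control arrays were well above background.

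**Figure D1:**
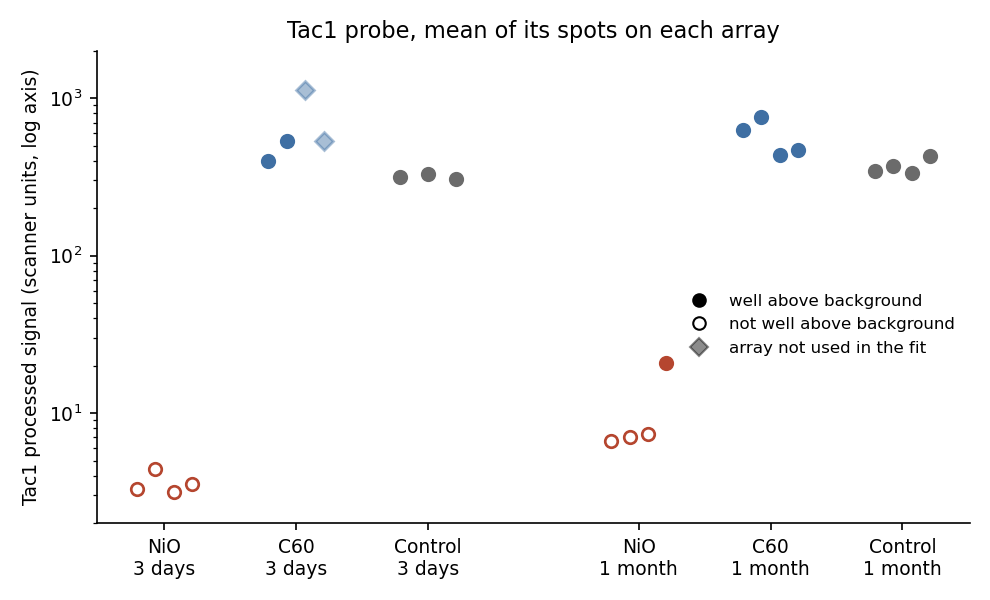
Processed Tac1 signal (log axis) on each array, with NiO left of C60 and control at 3 days and at 1 month, open points for arrays on which the probe was not well above background, and pale diamonds for the C60 arrays not used. All NiO arrays sit at 20.7 or below, and all C60 and control arrays at 307 or above.

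To compare arrays, each signal was put on the log2 scale and the array's own 75th percentile was taken off, so that 0 is that percentile. On this scale Tac1 averaged -6.97 ± 0.49 (SD, n = 4) in NiO lungs at 3 days, against -0.54 ± 0.25 (n = 2) in C60 lungs and -0.93 ± 0.13 (n = 3) in control lungs. After 1 month the averages were -6.16 ± 0.75 in NiO lungs, -0.15 ± 0.37 in C60 lungs and -0.64 ± 0.18 in control lungs (SD, n = 4 each). The order of the group means from the top was C60 at 1 month, C60 at 3 days, control at 1 month, control at 3 days, NiO at 1 month and NiO at 3 days. Neighbouring groups in that order overlapped in range except at 1 step, between control at 3 days and NiO at 1 month, whose means were 5.22 log2 units apart.

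A probe that no array of a group measured above background has only a bound there. The bound sets the other group's mean against the lowest signal that counted as well above background on each NiO array, or against the probe's own signal where that was higher. By this bound Tac1 was at least 15.4-fold lower in NiO than in control lungs at 3 days, and at least 20.2-fold lower than in C60 lungs. The difference of the measured means was -6.04 log2 units against control (SE 0.32). At 1 month 1 of 4 NiO arrays measured the probe and the other 3 read background signals. The difference of the measured means was -5.52 log2 units against control lungs (SE 0.30), and -5.89 without NiO array 4. Against C60 lungs at 1 month it was -6.003 log2 units (SE 0.30). With those 3 NiO arrays raised to their lowest signal well above background, Tac1 was at least 30.3-fold lower in NiO than in control lungs and at least 42.4-fold lower than in C60 lungs at 1 month. The NiO difference from control was 0.52 log2 units smaller in size at 1 month than at 3 days (SE 0.44), an amount close to its error, and since 7 of the 8 NiO arrays were at background this is a difference of dim signals.

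Tac1 in C60 lungs lay slightly above control lungs. The difference was 0.39 log2 units at 3 days (SE 0.39) and 0.48 at 1 month (SE 0.30). The 2 C60 arrays at 3 days did not overlap the 3 control arrays, while at 1 month the ranges overlapped. The differences were of the size of their errors. The 2 C60 arrays left out at 3 days read 1131 (array 3) and 535 (array 4) and stood at -0.34 and -0.87 on the scaled log2 scale. Array 3 lay just above the used C60 arrays (-0.72 and -0.36) and array 4 below them, inside the range of the control arrays (-1.06 to -0.81), so with all 4 C60 arrays the ranges of C60 and control lungs at 3 days overlapped. In the authors' deposited table, whose ratios are set to control, Tac1 stood at 0.014 in NiO, 1.324 in C60 and 1.024 in control at 3 days. At 1 month the authors' deposited table gave 0.025 in NiO, 1.671 in C60 and 0.959 in control.

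Local background and spot scatter were read beside these values. The Tac1 mean signal minus the local background was between 16.1 and 18.5 on NiO arrays at 3 days, where the arrays' negative control spots averaged 13.1 to 17.9. On C60 arrays it was 473 to 592, beside 35.9 to 72.6 for the negative controls, and on control arrays 310 to 333, beside -3.84 to -1.38. At 1 month the net signal was 20.6 to 41.3 on NiO arrays, beside 10.02 to 15.2 for the negative controls. Thus NiO arrays carried a Tac1 signal close to that of their negative control spots at 3 days and above it at 1 month. The net signal on the other 1-month arrays was 458 to 793 for C60 and 349 to 454 for control, beside 7.38 to 12.9 and 8.43 to 12.7. The coefficient of variation between the 10 spots of an array was 8.91% to 9.82% on NiO arrays, 2.76% to 3.31% on C60 arrays and 5.05% to 6.58% on control arrays at 3 days. The 1-month values were 19.4% to 51.5% on NiO arrays, 3.29% to 5.99% on C60 arrays and 2.80% to 5.03% on control arrays.

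**Figure D2:**
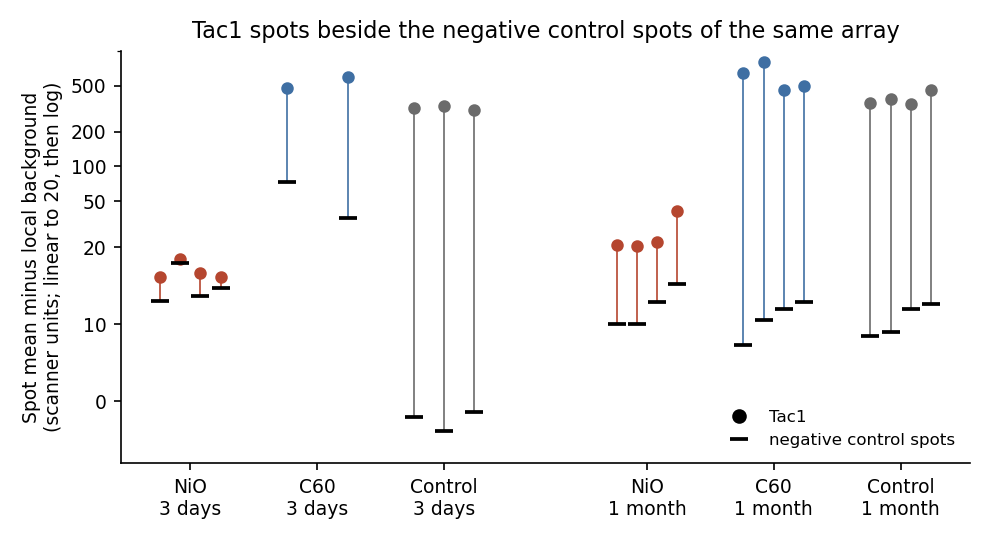
Tac1 mean signal minus local background on each array beside the mean net signal of the same array's negative control spots, by group and time (scanner units, linear to 20 and logarithmic above). On NiO arrays at 3 days both lie between 13.1 and 18.5, and on C60 and control arrays at either time Tac1 lies at 310 or above.

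The separation of NiO arrays from all others was described for every kept probe as a gap, the lowest C60 or control value minus the highest NiO value of the same time on the scaled log2 scale. Of 28677 kept probes, 69 (0.241%) had all NiO arrays below all others at both times, and 275 had all NiO arrays above. Taking each time by itself, 1056 had all NiO arrays below at 3 days and 771 at 1 month. Separation with NiO above at a single time, or from control arrays alone, was not counted over all probes. The gap was at least 1 log2 unit at both times for 3 probes, those of Tac1, Fbp1 and Csprs, and at least 2 for Tac1 alone. For Tac1 it was 5.35 at 3 days and 4.23 at 1 month. For Fbp1, an enzyme of glucose synthesis, it was 1.48 and 1.62, and for Csprs it was 1.98 and 1.03. These are the values just inside and just outside that step, and they come from the comparison that chose Tac1. Among the 213 kept probes that, like Tac1, were printed 10 times, the median log2 difference of NiO from control was -0.05 at 3 days and -0.03 at 1 month. The next lowest of these 213 after Tac1 stood at -1.56 at 3 days and -2.19 at 1 month. Over all 28677 kept probes, ordered from the lowest difference, Tac1 had rank 2 at 3 days and rank 1 at 1 month.

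Tacr1, the NK1 receptor that binds substance P, was dim. At 3 days its signal was 13.3, 5.36, 4.67 and 11.2 on NiO arrays, 17.01 and 9.49 on C60 arrays, and 11.0, 10.6 and 20.4 on control arrays. None of these arrays measured it well above background, so no fold is given at 3 days, and no difference was detectable at this signal. The 2 C60 arrays left out at 3 days read 34.6 and 23.6 and did measure it. By 1 month it stood well above background on all 12 arrays, with 16.7, 18.0, 14.9 and 32.2 on NiO arrays, 22.2, 22.6, 29.5 and 19.3 on C60 arrays, and 23.8, 18.3, 24.8 and 23.7 on control arrays. The groups overlapped, and NiO array 4 was the highest of all.

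Tests across all 28677 kept probes used limma over the 6 groups with Benjamini-Hochberg adjustment, and a probe was called when its adjusted p was under 0.05. Tacr1 at 1 month averaged -5.08 ± 0.45 in NiO, -4.74 ± 0.22 in C60 and -4.67 ± 0.10 in control lungs (SD, n = 4 each). It was not called in NiO against control lungs (-0.41 log2 units, SE 0.25, 95% interval -0.93 to 0.11, adjusted p = 0.208), with 31.0% of all kept probes called in that comparison. The sign turned under quantile normalization, where the difference was 0.23 (adjusted p = 0.575). Without NiO array 4 it was -0.63 (adjusted p = 0.0556). In C60 against control lungs, where 20.2% of probes were called, the difference was -0.08 (interval -0.60 to 0.44, adjusted p = 0.840), and 0.50 under quantile normalization (adjusted p = 0.224). NiO lungs stood -0.33 log2 units from C60 lungs (adjusted p = 0.816), in a comparison with 1.19% of probes called.

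The difference of Tacr1 that passed the test was between times. In control lungs it was at least 1.298-fold higher at 1 month than at 3 days (adjusted p = 0.0159), in a comparison with 46.9% of probes called and 26.9% called higher, and under quantile normalization it was not called (adjusted p = 0.323). Tacr1 was kept by the filter through its 1-month groups alone, the side where it was higher. The filter thus favours this direction, and the adjusted p is no support for a change with time. The authors' deposited table gave Tacr1 ratios of 0.873 in NiO, 0.997 in C60 and 1.221 in control at 3 days, and 1.001, 1.233 and 1.048 at 1 month.

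Tacr2, the NK2 receptor that binds neurokinin A, was well above background on all 21 arrays. At 3 days its signal was 61.2, 56.6, 47.7 and 60.8 on NiO arrays, 58.2 and 76.8 on C60 arrays, and 91.4, 74.1 and 63.9 on control arrays. The 1-month signal was 66.0, 59.6, 60.7 and 71.4 on NiO arrays, 111, 89.2, 56.1 and 100.4 on C60 arrays, and 89.6, 90.8, 68.9 and 83.8 on control arrays. After scaling, the 3-day groups overlapped, and at 1 month every NiO array lay below every control array but not below every C60 array.

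On the scaled log2 scale Tacr2 averaged -2.99 ± 0.27 in NiO lungs (SD, n = 4) at 3 days, -3.33 ± 0.23 in C60 lungs (n = 2) and -3.01 ± 0.30 in control lungs (n = 3). NiO and control lungs differed by 0.02 at 3 days (SE 0.22, interval -0.44 to 0.47, adjusted p = 0.964), with 18.4% of probes called. C60 and control lungs differed by -0.32 (SE 0.26, interval -0.86 to 0.23, adjusted p = 0.614), with 4.8% of probes called. Neither particle's 3-day lungs were thus called for this receptor.

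At 1 month Tacr2 averaged -3.35 ± 0.09 in NiO, -2.84 ± 0.46 in C60 and -2.79 ± 0.25 in control lungs (SD, n = 4 each). It fell by 0.57 log2 units in NiO against control lungs (SE 0.20, adjusted p = 0.0400, lower in 4 of 4 NiO arrays than in every control array), where 18.6% of probes were called lower. How many probes were so separated from control was not counted. The call was lost under quantile normalization (-0.23, adjusted p = 0.417), array median scaling, normexp correction and no filter on dim probes, and in 7 of 8 fits that left out 1 array. Those 8 fits gave -0.66 to -0.46, with adjusted p between 0.0311 and 0.130. C60 lungs differed from control lungs by -0.06 (interval -0.48 to 0.37, adjusted p = 0.858), and NiO from C60 lungs by -0.51 (adjusted p = 0.341).

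The NiO difference of Tacr2 at 1 month minus that at 3 days was -0.59 log2 units (SE 0.29, adjusted p = 0.122), which did not pass the test, with 37.1% of probes called in that comparison. The same difference for C60 was 0.26 (adjusted p = 0.624), with 10.2% of probes called. In the authors' deposited table Tacr2 stood at 0.867 in NiO, 0.766 in C60 and 0.97 in control at 3 days, and at 0.82, 1.143 and 0.961 at 1 month. Across the 6 group means of Tacr1, and likewise of Tacr2, neighbouring groups in the order of levels overlapped in range at every step. Taking each slide's mean as 1 value over both times, NiO minus control was -0.37 for Tacr1 and -0.28 for Tacr2 (adjusted p = 1.00 for each), and 0 of 28677 probes were called by limma, Tac1 not being tested. The difference of Tac1 from control on these slide values was -5.78 log2 units for NiO (SE 0.22) and 0.44 for C60 (SE 0.22).

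**Figure D3:**
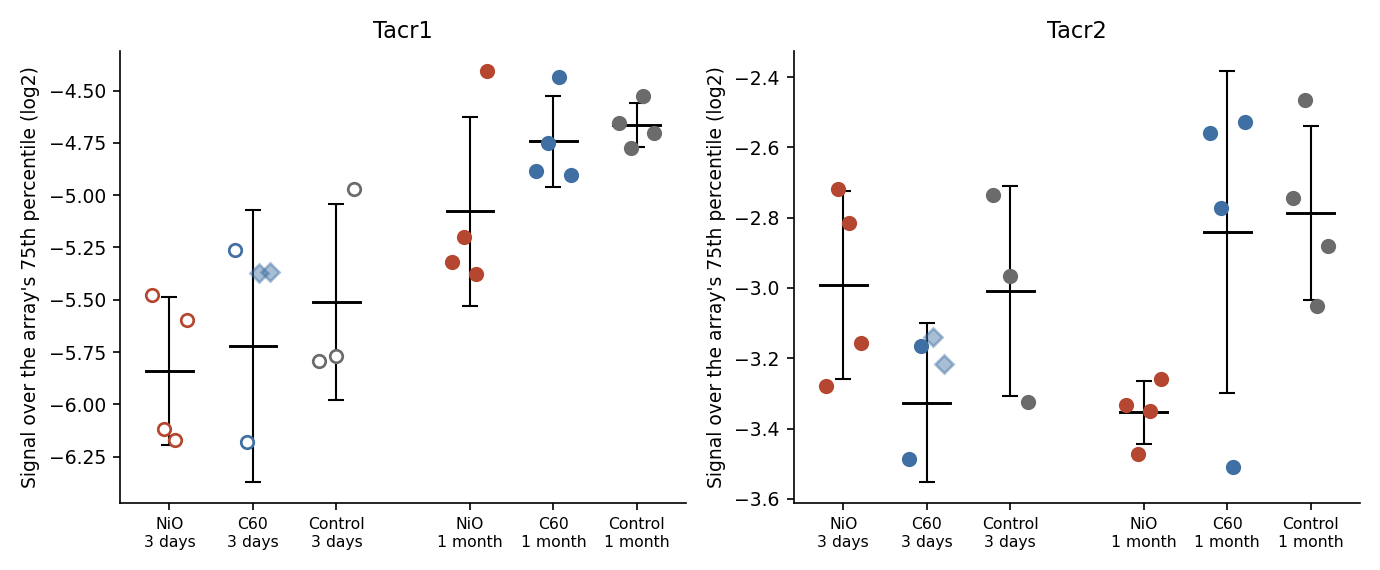
Scaled log2 signal of Tacr1 and Tacr2 on each array (0 is the array's 75th percentile), NiO left of C60 and control at each time, open points for arrays on which the probe was not well above background, pale diamonds for C60 arrays not used, and bars for mean and SD of the used arrays. Tacr1 is open on every used 3-day array, and NiO arrays lie below control arrays for Tacr2 at 1 month.

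Of the other members of the family, the precursor of neurokinin B (Tac3, called Tac2 in the files) and that of hemokinin (Tac4) were measured in all 6 groups. The NK3 receptor Tacr3 was well above background on 1 used array, from a NiO lung at 3 days, and was not kept. Tac3 read 83.7, 80.3, 79.2 and 118 on NiO arrays at 3 days, 85.8 and 123 on C60 arrays and 111, 112 and 118 on control arrays. The 3-day groups were close, at 0.09 log2 units for NiO (adjusted p = 0.869) and -0.29 for C60 (adjusted p = 0.799) against control. At 1 month Tac3 read 107, 77.4, 69.9 and 137 on NiO arrays, 76.6, 81.2, 79.6 and 99.0 on C60 arrays, and 106, 107, 331 and 205 on control arrays. Control arrays 3 and 4 were the high ones. Tac3 fell by 1.02 in NiO (SE 0.29, adjusted p = 0.0156) and by 1.11 in C60 lungs (adjusted p = 0.0162). Without control arrays 3 and 4 these were -0.43 (adjusted p = 0.177) and -0.52 (adjusted p = 0.118). The NiO call was also lost without NiO array 3.

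Tac4 varied most between arrays of a group. At 1 month it read 277, 284, 344 and 370 on NiO arrays, 1093, 66.0, 936 and 409 on C60 arrays, and 3478, 6379, 651 and 1275 on control arrays. All NiO arrays lay below all control arrays, and C60 arrays overlapped both. Tac4 fell by 2.91 log2 units in NiO against control lungs (SE 0.78, adjusted p = 0.0115), and by 4.16 without control arrays 3 and 4. It fell by 2.46 in C60 lungs (adjusted p = 0.0354), a call lost in 4 of 8 fits that left out 1 array. At 3 days the differences were 1.15 for NiO (adjusted p = 0.345) and -1.30 for C60 (adjusted p = 0.590). Of the 4 family genes counted besides Tac1, 0 were called at 3 days with either particle, also 0 at an unadjusted p under 0.05 and 0 under quantile normalization. At 1 month 3 were lower with NiO and 2 with C60, none higher, beside 18.6% and 12.6% of all probes called lower, and both sets were read against the same control arrays. Under quantile normalization 2 were lower with each particle. The family's median was -0.79 with NiO and -0.59 with C60 at 1 month, beside -0.11 and -0.08 over all probes.

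The scale sets part of these medians. Under quantile normalization the all-probe median at 1 month moved from its value above by 0.14 to 0.03 for NiO, and by 0.13 to 0.05 for C60. The share of called probes that were higher was 40.1% for NiO and 37.6% for C60 at 1 month, and 57.7% and 57.4% under quantile normalization. With array median scaling the shares were 78.9% and 79.8%. For NiO at 3 days the share was 57.6%, against 44.7% and 33.2%. The 1-month counts over the lists are therefore given under quantile normalization too.

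**Figure D4:**
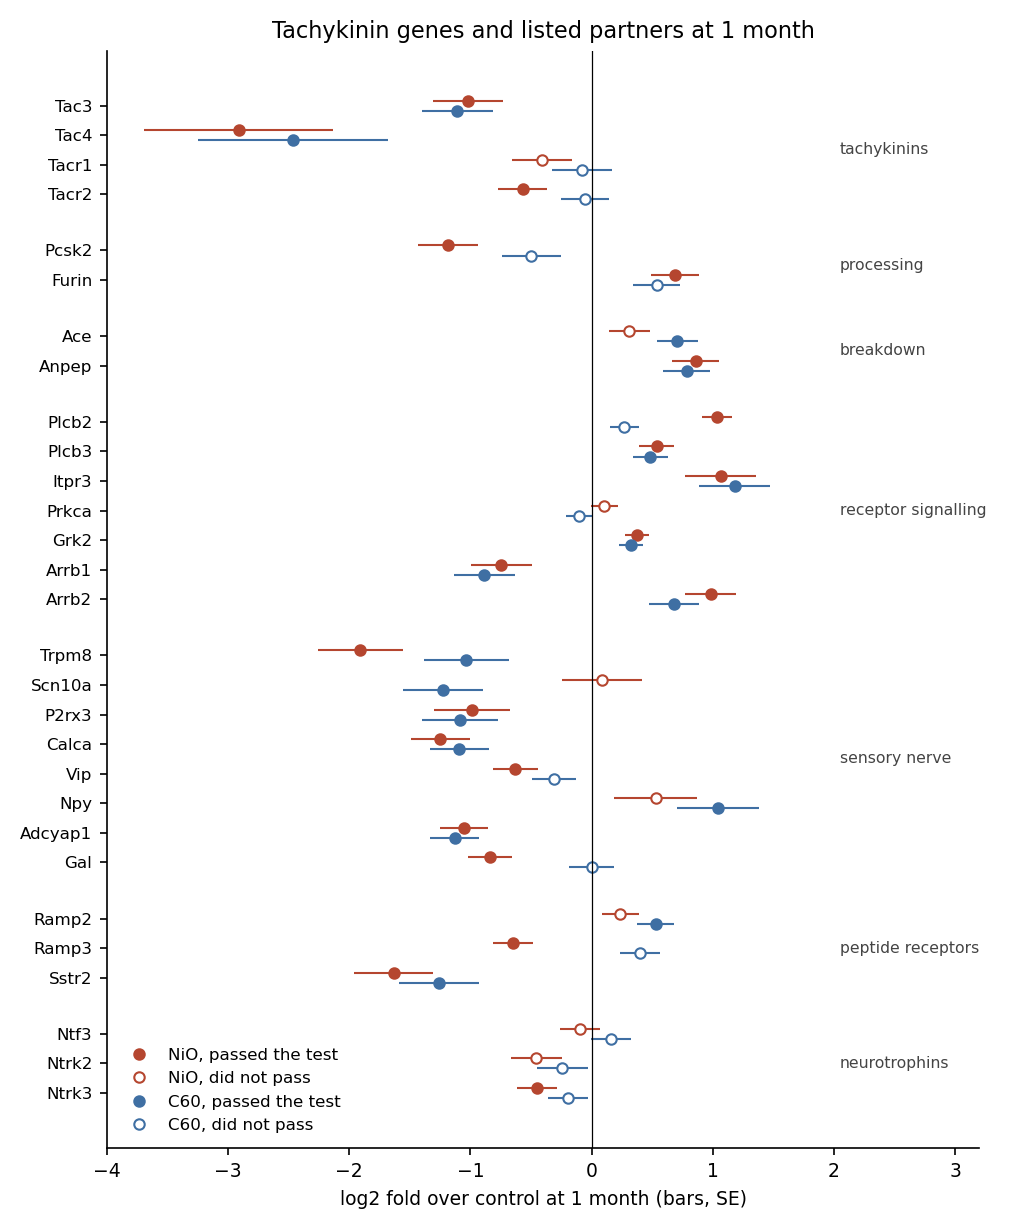
Log2 difference from control at 1 month (bars, SE) for the named genes of the 7 gene lists, NiO above C60, filled points for called genes. Trpm8 and Pcsk2 with NiO are shown at the measured difference, which is not a bound. Trpm8 and P2rx3 were kept by the filter through the 1-month control arrays alone. Called genes of the sensory nerve list lie below 0 with NiO, and those of the receptor signalling list lie mostly above 0.

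The genes that make, cleave and answer to tachykinins were followed in 6 more lists. At 3 days 0 of 54 counted genes of all lists, Tac1 left out, were called with C60, while 7 had an unadjusted p under 0.05 and 1 was called under quantile normalization. With NiO at 3 days 8 of 54 were called, 2 higher and 6 lower, where 10.6% of all probes were called higher and 7.78% lower, and a count of 8 was called under quantile normalization. At 1 month 21 of 54 were called with NiO, 7 higher and 14 lower, beside 12.4% and 18.6% of all probes. With C60 17 were called, 8 higher and 9 lower, beside 7.58% and 12.6% of all probes. The lower genes with each particle include Trpm8 and P2rx3, which were kept by the filter through the 1-month control arrays alone. Under quantile normalization 20 were called with NiO and 15 with C60 at 1 month. As shares these are 14.8% with NiO at 3 days, and 38.9% with NiO and 31.5% with C60 at 1 month, and they are to be read beside the all-probe shares of 18.4%, 31.0% and 20.2%. The list medians at 3 days ran from -0.19 for receptors of companion peptides to 0.31 for sensory nerve genes with NiO, and from -0.30 for the tachykinin family to 0.21 for those receptors with C60, beside 0.03 and -0.03 over all probes.

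Among the list genes at 3 days, the sodium channel Scn10a, which carries action potentials in pain fibres, and the receptor partner Ramp3 kept their calls in every refit. Scn10a read 173, 115, 82.5 and 140 on NiO arrays, 22.8 and 89.2 on C60 arrays, and 44.3, 51.0 and 57.2 on control arrays. It rose by 1.73 log2 units in NiO against control lungs (SE 0.35, adjusted p = 0.00369). The ranges did not overlap, and the share of all probes so separated from control was not counted. At 1 month it differed by 0.08 in NiO lungs (adjusted p = 0.860), and fell by 1.22 in C60 lungs (adjusted p = 0.0177). That C60 value was -0.69 without control arrays 3 and 4 (adjusted p = 0.141).

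Ramp3, which joins the calcitonin receptor-like receptor to form a receptor for adrenomedullin, read 273, 164, 155 and 269 on NiO arrays at 3 days, 590 and 831 on C60 arrays, and 574, 693 and 502 on control arrays. All NiO arrays lay below all others, as they did for 1056 of the 28677 kept probes at 3 days. Ramp3 fell by 1.05 log2 units in NiO against control lungs (SE 0.18, adjusted p = 0.000824). It stood -1.17 log2 units from C60 lungs (adjusted p = 0.00236), in a comparison with 7.38% of probes called. The 1-month signal was 310, 298, 295 and 429 on NiO arrays, 675, 691, 502 and 729 on C60 arrays, and 539, 441, 411 and 413 on control arrays. NiO was again the lowest group, by 0.65 against control (adjusted p = 0.00839, lost with array median scaling at 0.210) and by 1.05 against C60 (adjusted p = 0.00298).

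The other called genes at 3 days were all in NiO lungs and lost the call in at least 1 refit. Npy, the sympathetic transmitter neuropeptide Y, read 2370, 1030, 653 and 1973 on NiO arrays, 2822 and 5507 on C60 arrays, and 5857, 5853 and 4441 on control arrays. It fell by 1.56 log2 units (SE 0.37, adjusted p = 0.00870), with NiO arrays 2 and 3 the lowest, and without these the value was -1.20 (adjusted p = 0.116). The peptidase Ace stood at -0.70, and at -0.45 without those arrays (adjusted p = 0.197). The neurotrophin Ntf3 stood at -0.54 and the neurotrophin receptor Ntrk2 at -0.70, while Grk2, a kinase that desensitises receptors, stood at -0.32 and protein kinase C alpha (Prkca) at 0.46. Their highest adjusted p over the refits lay between 0.336 for Prkca and 0.496 for Ntrk2.

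At 1 month more genes of the sensory nerve list were called lower than higher with each particle. Of 10 counted genes of 17 listed, 6 were lower and 0 higher with NiO (median -0.83), and 5 were lower and 1 higher with C60 (median -0.67), where 18.6% and 12.6% of all probes were called lower. Both counts of lower genes include Trpm8 and P2rx3, which were kept by the filter through the 1-month control arrays alone. The counts and medians therefore lean toward lower values in part by the filter. Under quantile normalization 4 and 3 were lower and 0 higher. Calca, the precursor of calcitonin gene-related peptide, which shares sensory fibres with substance P, read 981, 1104, 936 and 1219 on NiO arrays, 1229, 975, 1280 and 989 on C60 arrays, and 1414, 1484, 4275 and 2507 on control arrays. All control arrays were the highest, arrays 3 and 4 by far. Calca fell by 1.25 log2 units with NiO (SE 0.24, adjusted p = 0.00214) and by 1.09 with C60 (adjusted p = 0.00737). Without control arrays 3 and 4 these were -0.72 (adjusted p = 0.00503) and -0.56 (adjusted p = 0.0213). The other 2 Calca probes stood at -0.05 and 0.41 with NiO and were not called, so the probes disagree.

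Adcyap1, the precursor of the neuropeptide PACAP, read 30.6, 26.4, 28.2 and 32.5 on NiO arrays, 35.1, 23.6, 24.9 and 22.9 on C60 arrays, and 36.8, 42.1, 89.2 and 56.4 on control arrays. It fell by 1.05 with NiO (adjusted p = 0.00174) and by 1.13 with C60 (adjusted p = 0.00204), and the C60 call was lost with normexp correction (adjusted p = 0.182). Without control arrays 3 and 4 the differences were -0.68 (adjusted p = 0.00585) and -0.76 (adjusted p = 0.00501). The cold sensor Trpm8 read 4.27, 9.28, 3.83 and 11.1 on NiO arrays, none well above background, against 13.3, 16.0, 40.5 and 22.2 on control arrays. It was at least 1.92-fold lower with NiO (adjusted p = 0.00148). With C60 it stood at -1.03 (adjusted p = 0.0464, up to 0.540 over the refits). Trpm8 was kept by the filter through the 1-month control arrays alone, the group where it was high. Both tests are therefore biased by the filter, and their adjusted p is no support for a lower level.

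Galanin (Gal), another neuropeptide of sensory nerves, differed from both other groups in NiO lungs. It read 119, 85.8, 98.4 and 163 on NiO arrays, 195, 188, 252 and 144 on C60 arrays, and 151, 143, 213 and 208 on control arrays. It fell by 0.84 log2 units in NiO against control (SE 0.18, adjusted p = 0.00398) and by 0.84 against C60 (adjusted p = 0.0298). P2rx3, an ATP-gated channel of sensory nerves, stood at -0.99 with NiO and -1.09 with C60, and at -0.45 (adjusted p = 0.289) and -0.55 (adjusted p = 0.213) without control arrays 3 and 4. Like Trpm8, P2rx3 was kept by the filter through the 1-month control arrays alone. Vip, a peptide that relaxes airway muscle, stood at -0.63 with NiO (adjusted p = 0.0172, up to 0.170 over the refits). Npy stood at 1.04 with C60 (adjusted p = 0.0397, up to 0.128).

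The neurotrophin list had 1 lower and 0 higher of 9 genes with NiO (median -0.33), and under quantile normalization 1 higher and 0 lower. The gene called lower was the neurotrophin receptor Ntrk3, at -0.45 (adjusted p = 0.0445, up to 0.646). With C60 0 of 9 were called by limma (median -0.19), 1 at an unadjusted p under 0.05 and 1 under quantile normalization.

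Of 8 receptors of companion peptides, 2 were lower with NiO (median -0.40), namely Ramp3 and the somatostatin receptor Sstr2. With C60 1 was higher, the receptor partner Ramp2 at 0.53 (adjusted p = 0.0234, up to 0.0838), and 1 lower, again Sstr2 (median 0.13). Under quantile normalization 2 were lower with NiO and 0 were called with C60. Sstr2 read 30.6, 15.0, 15.0 and 25.7 on NiO arrays, 30.8, 21.6, 23.3 and 25.6 on C60 arrays, and 30.1, 34.5, 121 and 74.9 on control arrays. Control arrays 3 and 4 stood out here too. Sstr2 fell by 1.63 with NiO (adjusted p = 0.00243) and by 1.26 with C60 (adjusted p = 0.0157), and without control arrays 3 and 4 these were -0.91 (adjusted p = 0.0141) and -0.53 (adjusted p = 0.120).

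Among the genes that carry the receptors' signal, more were called higher than lower at 1 month. Of 12 counted, 5 were higher and 1 lower with NiO (median 0.24), and 4 higher and 1 lower with C60 (median 0.12), where 12.4% and 7.58% of all probes were called higher. Under quantile normalization 7 and 6 were higher and 1 lower with each. Plcb2, a phospholipase C enriched in blood cells, read 314, 310, 336 and 328 on NiO arrays, 173, 176, 212 and 160 on C60 arrays, and 142, 101, 154 and 158 on control arrays. NiO arrays were all above all others, a separation that was not counted over all probes at this time. Plcb2 rose by 1.03 log2 units in NiO against control (SE 0.12, adjusted p = 6.51e-05) and by 0.76 against C60 (adjusted p = 0.00405).

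The desensitising adaptor Arrb2 rose by 0.98 with NiO (adjusted p = 0.00336), and stood at 0.68 with C60 (adjusted p = 0.0311, up to 0.110). The calcium release channel Itpr3 rose by 1.07 with NiO (adjusted p = 0.0129) and stood at 1.18 with C60 (adjusted p = 0.0125, up to 0.0592). Plcb3 rose by 0.54 with NiO (adjusted p = 0.0108) and stood at 0.48 with C60 (adjusted p = 0.0260, up to 0.0797). Grk2 stood at 0.38 with NiO (adjusted p = 0.0102, up to 0.0676) and 0.33 with C60 (adjusted p = 0.0287, up to 0.308). Arrb1, the other adaptor, was the gene called lower, at -0.75 with NiO (adjusted p = 0.0323) and -0.88 with C60 (adjusted p = 0.0219), and stood at -0.14 (adjusted p = 0.391) and -0.28 (adjusted p = 0.0999) without control arrays 3 and 4.

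Of the genes that make or cleave the peptides, 3 were called with NiO at 1 month. Of 6 processing genes, the protease Furin stood at 0.69 with NiO (adjusted p = 0.0155, up to 0.0600), and the prohormone convertase Pcsk2 was at least 2.02-fold lower (adjusted p = 0.00293, up to 0.210). With C60 0 of 6 were called by limma, 1 at an unadjusted p under 0.05 and 0 under quantile normalization. The processing median was -0.17 with NiO and -0.05 with C60, and the peptidase median 0.00 and -0.13. Of 5 peptidases, Anpep was called higher with NiO and Anpep and Ace with C60. Under quantile normalization 1 processing gene was higher and 0 lower with NiO, 1 peptidase was higher and 1 lower with NiO, and 2 peptidases were higher with C60. Ace, which degrades substance P among other peptides, read 2595, 2740, 2620 and 3037 on NiO arrays, 3361, 3895, 3742 and 2757 on C60 arrays, and 2266, 1183, 2049 and 2490 on control arrays. It rose by 0.71 with C60 (adjusted p = 0.0101). Anpep stood at 0.86 with NiO (adjusted p = 0.00488) and 0.78 with C60 (adjusted p = 0.0128) by its brightest probe, while its other probe stood at -1.16 and -1.07, called in the opposite direction. Of the genes called, 2 of 8 with NiO at 3 days, 11 of 20 with NiO at 1 month and 2 of 17 with C60 at 1 month kept the call in every refit, Tacr2 not counted.

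Markers of cells that could carry Tac1 were read beside it as summed signals, in units of each array's 75th percentile. Of 13 neuronal markers 9 were kept, and Snap25 and Syt1 were well above background on 0 of 21 arrays. Their sum was 1.60 to 3.25 in NiO, 1.503 to 1.71 in C60 and 1.59 to 2.13 in control lungs at 3 days. At 1 month it was 1.22 to 1.54 in NiO, 1.10 to 1.89 in C60 and 1.41 to 2.57 in control lungs. The neuronal sums thus overlapped between NiO and control lungs at both times. By single markers, 0 were called higher and 0 lower with NiO at 3 days (median log2 difference 0.12). At 1 month 3 of 9 were called lower and 0 higher with NiO (median -0.30), beside 18.6% of all probes called lower. Under quantile normalization 1 was lower and 1 higher. With C60 at 1 month 1 was lower and 0 higher (median -0.24), beside 12.6% of all probes called lower. Of 8 markers of pulmonary neuroendocrine cells 6 were kept, and Syp was well above background on 0 arrays. Their sum was 4.35 to 7.77 in NiO, 5.26 to 5.59 in C60 and 5.83 to 6.43 in control lungs at 3 days, and 4.16 to 5.40, 4.79 to 6.07 and 6.15 to 7.87 at 1 month. This sum overlapped between NiO and control lungs at 3 days. At 1 month it lay below control in both NiO and C60 lungs, whose ranges overlapped. Of the 6 kept neuroendocrine markers 2 were called lower and 0 higher with NiO at 1 month (median log2 difference -0.53). With C60 1 was lower and 0 higher (median -0.22).

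The summed signal of neutrophil markers was higher in NiO lungs at 3 days, and that of macrophage markers at 1 month. Of 5 kept neutrophil markers 1 was called higher and 0 lower in NiO against control at 3 days (median log2 difference -0.13). Of 4 kept macrophage markers 2 were called higher and 0 lower at 1 month (median 0.62). Of all probes 10.6% and 12.4% were called higher in these comparisons. Neutrophil markers (5 of 6 kept) summed to 19.8 to 25.2 in NiO lungs at 3 days, against 4.64 to 7.25 in C60 and 4.48 to 7.27 in control lungs. At 1 month they overlapped, at 5.22 to 24.6 in NiO, 4.55 to 9.99 in C60 and 4.32 to 7.16 in control lungs. Macrophage markers (4 of 6 kept) summed to 36.2 to 54.4 in NiO lungs at 1 month, against 26.7 to 28.9 in C60 and 25.8 to 28.3 in control lungs. At 3 days they overlapped, at 24.04 to 36.3 in NiO, 24.3 to 32.1 in C60 and 24.2 to 26.2 in control lungs. Endothelial markers (6 of 6 kept) summed to 77.8 to 99.8 in NiO lungs at 3 days, against 103 to 109 in C60 and 119 to 130 in control lungs. At 1 month they summed to 101 to 117 in NiO, 119 to 141 in C60 and 101 to 125 in control lungs, and NiO overlapped control. Of the 6 endothelial markers 3 were called lower and 0 higher with NiO at 3 days (median log2 difference -0.51), beside 7.78% of all probes called lower. At 1 month 0 were called lower and 0 higher with NiO (median -0.06). Mast cell markers (8 of 10 kept) summed to 7.59 to 12.01 in NiO, 8.46 to 9.07 in C60 and 5.77 to 8.42 in control lungs at 3 days. At 1 month they summed to 7.66 to 9.13 in NiO, 7.30 to 10.8 in C60 and 9.63 to 11.4 in control lungs, where NiO lay below control. Cartilage and large airway markers (5 of 7 kept) summed to 0.645 to 0.854 in NiO, 0.428 to 0.492 in C60 and 0.426 to 0.678 in control lungs at 3 days. At 1 month they summed to 0.321 to 0.387 in NiO, 0.384 to 0.521 in C60 and 0.475 to 1.34 in control lungs, lower in NiO than in control at this time only. At 3 days the NiO and control ranges overlapped, and the NiO median was the higher (0.704 against 0.448). Schwann cell markers (6 of 8 kept) summed to 29.7 to 40.1 in NiO, 40.4 to 44.8 in C60 and 37.8 to 43.1 in control lungs at 3 days. At 1 month they summed to 47.8 to 53.1 in NiO, 50.9 to 56.1 in C60 and 35.4 to 45.1 in control lungs. The sum thus lay above control with each particle, while the single Schwann cell markers were mixed. With NiO 1 of 6 was called higher and 1 lower (median log2 difference -0.07), beside 12.4% and 18.6% of all probes. With C60 2 were called higher and 1 lower (median 0.20), beside 7.58% and 12.6%. The part of any of these cells in the Tac1 or receptor values was not tested.

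The genes most like Tac1 were ranked by Pearson's r with its probe over the 21 used arrays, which fall into NiO arrays and all others, so the rank rests on that split. Of 28676 other kept probes 6 had r over 0.9 and 29 had r under -0.9. The highest named genes were Csprs (0.97), Fbp1 (0.94, and 0.91 by its other probe), the lectin Clec2l (0.93), Ramp3 (0.91), the protease inhibitor Serpinb10 (0.89), the macrophage complement receptor Vsig4 (0.88), Prom2 (0.88), Ppfia4 (0.86) and the cadherin Cdh22 (0.86). Without the NiO arrays (n = 13) r was 0.22 for Csprs, 0.73 and 0.44 for Fbp1, 0.24 for Clec2l and 0.45 for Ramp3. For Vsig4 it was 0.43. Tac1 was well above background on 1 of 8 NiO arrays, so no r is given within them. Csprs was itself well above background on 0 of 4 NiO arrays at 3 days and 1 of 4 at 1 month, and the other Fbp1 probe and Cdh22 on 0 of 8.

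These genes differed in level as well as in rank. Fbp1 by its bright probe averaged -2.42 ± 0.53 in NiO, 0.47 ± 0.49 in C60 and 0.10 ± 0.77 in control lungs at 3 days, and -1.66 ± 0.26, 1.18 ± 0.35 and 0.46 ± 0.19 at 1 month. Serpinb10 averaged -0.48 ± 0.57 in NiO, 3.16 ± 0.32 in C60 and 2.69 ± 0.11 in control lungs at 3 days, and 1.54 ± 0.53, 3.102 ± 0.14 and 3.02 ± 0.14 at 1 month. Vsig4 was well above background on 1 of 4 NiO arrays at 3 days and on 0 of 4 at 1 month, and on all C60 and control arrays.

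The genes that ran most opposite to Tac1 were the mitochondrial kinase Ak4 (r = -0.96), the proton pump subunit Atp6v0d2 (-0.94), the haem-degrading enzyme Hmox1 (-0.94), the amino acid transaminase Bcat1 (-0.94) and the anion exchanger Slc26a4 (-0.94). Atp6v0d2 averaged 0.89 ± 0.57 in NiO, -3.04 ± 0.21 in C60 and -3.04 ± 0.25 in control lungs at 3 days, and 0.44 ± 0.50, -2.76 ± 0.34 and -1.90 ± 0.37 at 1 month. Without NiO arrays (n = 13) r was -0.55 for Ak4 and -0.06 for Atp6v0d2.

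**Figure D5:**
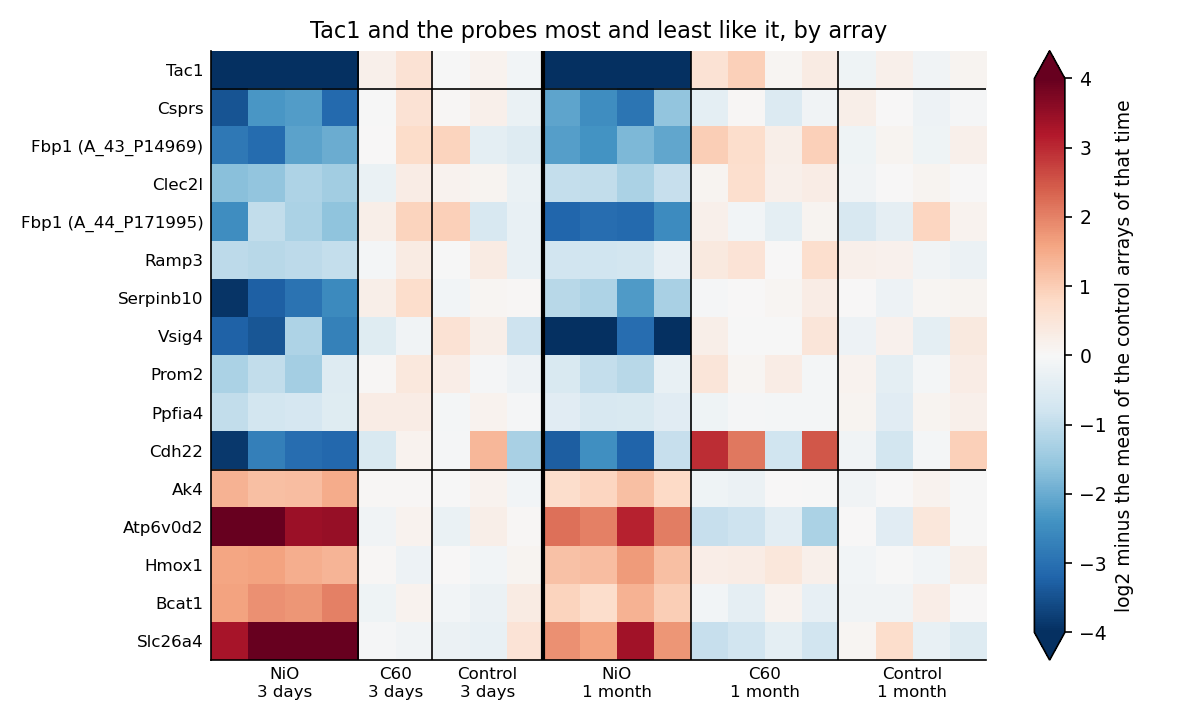
Difference of each array from the control mean of its time (log2 units, colour) for Tac1 and the 15 probes with the highest and lowest Pearson's r to it, NiO arrays left of C60 and control arrays, with the colour ending at 4 units either way. Tac1 lies between -6.56 and -4.41 in every NiO array, and between -0.17 and 0.95 in every other array.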

How the data were processed

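RNA of rat lungs was read on 23 one-colour arrays, of which 21 were used. Per the file headers, Feature Extraction 9.5.3.1 (build rn4) made the deposited spot intensity and its marks for spots well above background. The processed intensity deposited by the authors is background-subtracted and spatially detrended. The authors' deposited table holds ratios, with column medians of 0.986 (NiO), 1.038 (C60) and 1.006 (control) at 3 days and 1.133, 1.125 and 0.997 at 1 month. Its centring is unknown, and the sources used here do not describe its making. The well above background marks are deposited yes or no values of another kind.

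From the intensity, log2 values minus each array's 75th percentile were computed. Control spots and outlier-marked spots were left out, and spots of a probe were averaged. Kept probes stood well above background on all used arrays of 1 or more groups. limma 3.58.1 in R 4.3.3 fitted 6 groups (15 residual degrees of freedom) with Benjamini-Hochberg adjustment over 28677 probes, and was tested on simulated data. Python 3.11.15, pandas 2.3.3, numpy 2.4.6 and matplotlib 3.10.9 made tables and figures. Array number limits the precision.

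Named were the members, the family, called genes of the other lists by their brightest kept probe, and the 10 named probes most like Tac1 and the 5 least like it. Members and lists were chosen with earlier results of these data known. The neurotrophin list leaves out 1 gene that is not reported here. Alternatives were quantile normalization, array median scaling, normexp correction with an offset of 50, no filter, a filter on every array, all 4 C60 arrays at 3 days, the compared groups alone, slide means, the deposited ratios, leaving out each array, and, chosen after seeing the data, leaving out NiO arrays 2 and 3 at 3 days or control arrays 3 and 4 at 1 month.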

Additional observations from a re-analysis of the deposited data

Results flagged for a closer look

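Single arrays stood apart from the rest of their group, by a test for 1 outlying value among 4, which chance passes in about 1 of 20 groups; 120 groups of list genes and members were looked at. On the scaled log2 scale Tac1 stood at -5.04 on NiO array 4 at 1 month, against -6.64 to -6.38 on the other 3. The same array was highest for Ramp3 (-0.67) and lowest for Vip (-3.37). NiO array 3 stood apart for Plcb2 at 1 month (-0.88) and for Vip at 3 days (-2.57). C60 array 1 at 1 month was the highest for Adcyap1 (-4.22) and Trpm8 (-5.48), and control array 2 the lowest for Itpr3 (-2.33).

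The difference between NiO and control lungs changed between the times for 21 of the named list genes, by limma's test of the 1-month minus the 3-day difference, where 37.1% of all probes were called. These genes were named for a call at 1 of the times, which favours a change between them, and over all counted list genes the count was 24 of 54 (44.4%), and 22 under quantile normalization. It was negative for Tac4 (-4.07), Sstr2 (-1.98), Trpm8 (-1.77), Scn10a (-1.64), P2rx3 (-1.45), Calca (-1.43), Gal (-1.28), Pcsk2 (-1.22), Vip (-1.12), Adcyap1 (-0.9999) and Arrb1 (-0.998). It was positive for Npy (2.09), Arrb2 (1.47), Itpr3 (1.23), Furin (1.08), Anpep (1.03), Ace (1.01), Plcb2 (0.97), Plcb3 (0.92), Ramp2 (0.72) and Grk2 (0.70). At 3 days Trpm8 was well above background on 0 of 4 NiO and 0 of 3 control arrays, Pcsk2 on 1 and 0, and P2rx3 on 1 and 1. For Trpm8, Pcsk2 and P2rx3 the 3-day part of the change is therefore a difference of dim signals. Trpm8 and P2rx3 were also kept by the filter through the 1-month control arrays alone, which favours a negative change. Under quantile normalization 5 of the 21 were no longer called, namely Pcsk2 (-0.25, adjusted p = 0.699), Trpm8 (-0.55, adjusted p = 0.482), P2rx3 (-0.47, adjusted p = 0.279), Adcyap1 (-0.23, adjusted p = 0.511) and Arrb1 (-0.70, adjusted p = 0.113). Between C60 and control lungs it was called for Calca (-1.67), Adcyap1 (-1.66) and Plcb3 (0.75), where 10.2% of all probes were called, and these 3 kept the call under quantile normalization. Each slide holds 1 group at 1 time, so slide and these differences cannot be told apart.

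One of the 2 C60 arrays not used at 3 days, array 3, gave Tac1 at -0.34, above the control arrays (-1.06 to -0.81). The other, array 4, stood at -0.87, inside their range.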

How the results depend on the processing

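Under every alternative run Tac1 stayed lower in NiO than in control lungs. At 3 days its log2 difference was -6.44 under quantile normalization, -6.44 without NiO arrays 2 and 3 and -2.24 with normexp correction. At 1 month it was -2.72 with normexp, whose offset of 50 lies above the NiO signals by construction. Leaving out 1 array gave -6.22 to -5.86 at 3 days and -5.89 to -5.36 at 1 month. For C60 it gave 0.21 to 0.57 and 0.33 to 0.62, and array median scaling gave 0.79 at 1 month. The lower Tacr2 in NiO lungs at 1 month lost its call under quantile normalization (-0.23), array median scaling (-0.23), normexp (-0.32) and no filter (-0.57), where more probes are tested. Leaving out 1 array gave -0.66 to -0.46, with the call kept only without control array 3. Without control arrays 3 and 4 it was -0.75 (adjusted p = 0.0301). Probes called with NiO at 3 days numbered 5270, against 934 with the compared groups alone, 1760 without NiO arrays 2 and 3, and 2459 (without control array 1) to 10999 (without NiO array 1) leaving out 1 array. With C60 at 3 days they numbered 1377, against 3338 with all 4 C60 arrays, 912 with the compared groups alone and 804 to 1007 leaving out 1 array. At 1 month they numbered 8893 with NiO (5989 to 8788) and 5779 with C60 (2853 to 6068), the C60 count being 9732 with array median scaling and 3720 with the compared groups alone. The cause was not tested. No paired analysis was possible because the labels give no replicate numbers shared between groups. Tacr1 at 3 days lay at background on every used array, and Tac1 on all 4 NiO arrays at 3 days and on 3 of 4 at 1 month, so the size of the NiO difference in Tac1 is a bound. Arrays of a group share a slide.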
